A study of Mus musculus with 16 samples.

Results

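The 43 genes described here encode the proton pump that acidifies lysosomes, the lysosome's membrane proteins, enzymes and enzyme cofactors, and factors of autophagy. They were chosen by symbol, though with earlier results of these data known, and all 43 were found among the 27179 gene identifiers of the count table. RNA had been sequenced from sorted alveolar type 2 (AT2) cells, lung epithelium that makes surfactant, of 8 mice, as a CD44+ and a CD44- fraction of each, which gave 16 libraries. CD44 is a surface receptor for hyaluronan. The sort had removed cells with CD45 or CD31, taken live cells positive for Epcam, negative for CD104 and high for CD200, and then divided them by CD44. The 4 groups, of 4 libraries each, are OG CD44+, OG CD44-, R26 CD44+ and R26 CD44-.

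OG and R26 are the prefixes of the table's columns. The labels give the genotypes SP-C Mutant and SP-C WT, where SP-C is surfactant protein C, encoded by Sftpc, but no label ties a prefix to a genotype. Reading OG as mutant and R26 as control is an inference from the prefix and could be wrong, in which case every difference between OG and R26 cells changes sign against genotype. All 16 samples, of both prefixes, carry OG TMX as their treatment. The mutant allele, its driver and the animals' age are not given in the sources used here. The comparisons of CD44+ with CD44- cells within a prefix do not rest on that reading.

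Lysosomes are kept acidic by the V-ATPase, a rotary pump whose V1 sector burns ATP in the cytosol and whose V0 sector carries protons through the membrane. The acid activates hydrolases that break down proteins, sugars and lipids, including cargo that autophagosomes deliver after receptors such as p62 and proteins of the ATG8 family have gathered it. TFEB, TFE3 and MITF are related transcription factors that switch many of these genes on through promoter sites with the core CACGTG. In AT2 cells the lamellar body, where surfactant is stored, is itself a lysosome-related organelle, and cathepsins and the pump take part in maturing surfactant proteins there.

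Libraries held 9022471 to 21363816 counts. AT2 markers were abundant in every library, but their summed level differed by group: 20808 to 25145 CPM (counts of the gene scaled to a common library total) in OG CD44+ cells, 42411 to 45409 in OG CD44- cells, 92410 to 132739 in R26 CD44+ cells and 139957 to 164582 in R26 CD44- cells. All 10 of these markers fell in OG against R26 cells of either sort and in CD44+ against CD44- cells of either prefix. Sftpc itself, at 5688 to 7173 CPM in OG CD44+ cells and 71101 to 86308 CPM in R26 CD44- cells, is no check of genotype while the mutation is unknown. The 20 markers of macrophages and monocytes, cells rich in lysosomes, summed to 44.6 to 69.8 CPM in OG CD44+ cells, 52.2 to 62.7 in OG CD44- cells, 39.3 to 65.8 in R26 CD44+ cells and 11.7 to 16.4 in R26 CD44- cells, where Marco, Siglecf, Fcgr1 and Tyrobp had no count. Of 15 of these markers that could be tested, 12 rose and 1 fell in OG CD44- against R26 CD44- cells and 7 rose and 2 fell in OG CD44+ against R26 CD44+ cells. The part of these cells in the results below was not tested. Libraries of a group correlated at 0.966 or above over genes, lowest in R26 CD44+.

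Promoter sequence was looked at because TFEB-family factors act through CACGTG. RefSeq windows from 250 bases before to 50 after the start (GRCm38.p6) were found for 34 of the 43 genes. CACGTG, which reads the same on both strands, stood in 14 of these 34 (41.2%), against 8.09% of 27025 genes. The longer TCACGTGA, which contains CACGTG and is also the same on both strands, stood in 7 (20.6%), against 1.12% of all genes. On a longer list of 121 other genes of these pathways, 101 had a window. The shares there were lower than among the 43 genes, 19.8% with CACGTG and 6.93% with TCACGTGA. The following 4 sequences are the 250 bases before the start, read 5′ to 3′ on the gene's strand, with CACGTG in capitals. Ctsd is shown for its difference between OG and R26 cells, Lamp1 for its 4 copies, Gla for its 2 copies of TCACGTGA, and Mcoln1 as a gene with that motif whose level was not called different anywhere. The coordinates are chr7:142387828-142388077 on the minus strand for Ctsd, chr8:13158911-13159160 on the plus strand for Lamp1, chrX:134601006-134601255 on the minus strand for Gla and chr8:3500269-3500518 on the plus strand for Mcoln1.
Ctsd: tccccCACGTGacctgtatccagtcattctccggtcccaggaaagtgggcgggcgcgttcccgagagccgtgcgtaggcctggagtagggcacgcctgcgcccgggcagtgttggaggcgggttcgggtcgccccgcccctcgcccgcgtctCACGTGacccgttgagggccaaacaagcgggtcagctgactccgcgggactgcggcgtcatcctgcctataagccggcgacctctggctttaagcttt
Lamp1: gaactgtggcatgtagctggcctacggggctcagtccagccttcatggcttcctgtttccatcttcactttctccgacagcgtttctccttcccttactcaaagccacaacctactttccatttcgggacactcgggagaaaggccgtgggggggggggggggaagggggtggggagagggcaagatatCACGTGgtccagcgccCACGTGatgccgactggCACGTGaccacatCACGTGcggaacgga
Gla: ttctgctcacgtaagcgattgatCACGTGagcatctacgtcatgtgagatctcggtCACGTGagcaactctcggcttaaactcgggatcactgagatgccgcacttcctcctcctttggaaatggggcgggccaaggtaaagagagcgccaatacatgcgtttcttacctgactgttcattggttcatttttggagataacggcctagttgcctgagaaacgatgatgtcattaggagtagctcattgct
Mcoln1: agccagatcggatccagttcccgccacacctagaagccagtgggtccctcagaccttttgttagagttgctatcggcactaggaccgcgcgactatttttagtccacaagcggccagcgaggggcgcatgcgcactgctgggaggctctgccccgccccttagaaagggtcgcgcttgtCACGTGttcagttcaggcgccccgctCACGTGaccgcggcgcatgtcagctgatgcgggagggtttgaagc

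In Ctsd the copies begin 245 and 98 bases before the start, and in Gla 227 and 194. Lamp1 has its copies at 61, 45, 28 and 15 bases before the start, and Mcoln1 at 71 and 45. The other genes with CACGTG were Atp6v1a, Atp6v0b, Atp6v0d1, Atp6v0e, Ctsa, Ctsl, Glb1, Gaa, Atg5 and Atg7. A match describes these letters only and shows no bound factor.

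Most of the 43 genes were higher in OG than in R26 cells, in both sorts. In OG CD44- against R26 CD44- cells 34 rose and 5 fell at a Benjamini-Hochberg adjusted p under 0.05 in edgeR's quasi-likelihood test, where 39.4% of 15516 tested genes rose and 29.6% fell. The median log2 fold change was 0.37 over the 43 genes and 0.12 over all genes. In OG CD44+ against R26 CD44+ cells the same 34 genes rose and 3 fell, where 34.5% of all tested genes rose and 34.6% fell, and the medians were 0.49 and -0.01. These comparisons use different libraries, though both sorts come from the same 8 animals. Atp6v1b2, Tfeb and Ulk1 fell in both sorts, and Map1lc3a and Map1lc3b fell in the CD44- sort. Markers of other cell types and states moved with this comparison. The 7 markers of transitional alveolar cells all rose in both sorts, with sums of 3288 to 3417 CPM in OG CD44+ cells and 2466 to 2489.9 CPM in OG CD44- cells, against 586 to 706 CPM in R26 CD44+ cells and 447 to 489.8 CPM in R26 CD44- cells. Of 8 alveolar type 1 markers, 6 rose and 2 fell in the CD44+ sort and 8 rose in the CD44- sort, and of 6 ciliated cell markers 5 rose in each. Of 7 markers of fibroblasts and mural cells, 3 rose and 2 fell in the CD44+ sort, and all 7 rose in the CD44- sort, with sums of 709 to 769 CPM in OG and 96.9 to 127 CPM in R26 cells. All 6 endothelial markers fell in the CD44+ sort, and the part of these markers in the result was not tested. In neither sort were Atp6v1g1, Atp6v0b, Mcoln1 or Becn1 called. These are bulk libraries, in which fewer cells of a type and less RNA per cell cannot be told apart.

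**Figure D1:**
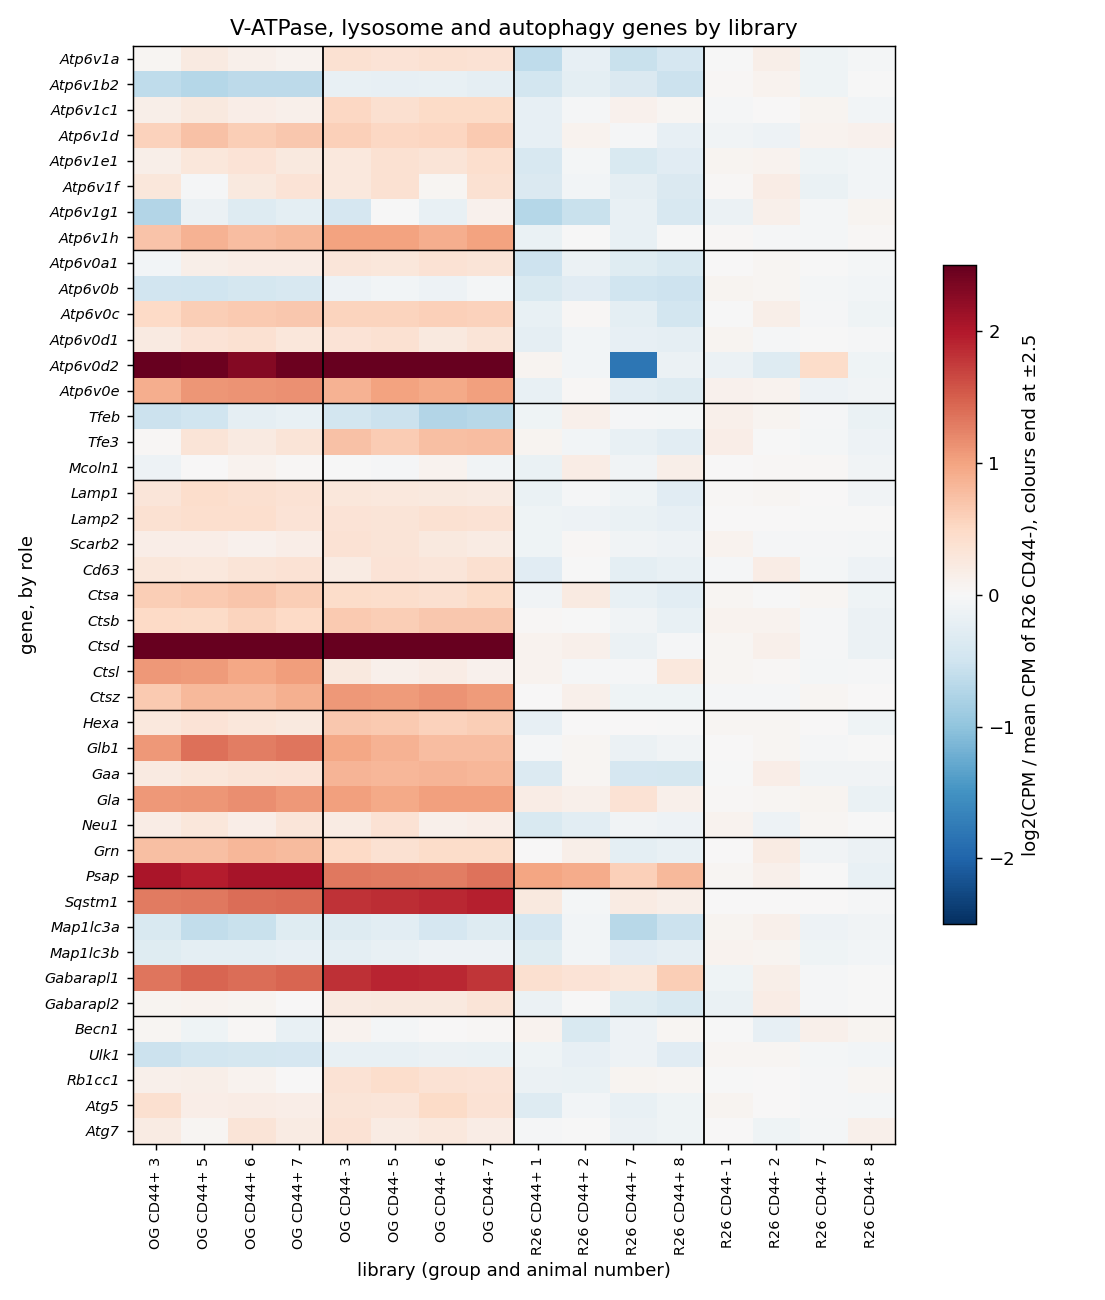
Level of each of the 43 genes in each library, as log2 of its CPM over the mean CPM of the 4 R26 CD44- libraries, with genes grouped by role and libraries by group and animal number; colours end at ±2.5. Ctsd and Atp6v0d2 are near or past the end of the scale in the OG libraries, and Sqstm1, Gabarapl1 and Psap stand out in the same columns.

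With upper quartile scaling, which placed the median of all genes in the CD44- comparison at 0.00 in place of 0.12, the 43 genes had a median of 0.25 there, with 29 higher and 6 lower. That scaling called 5119 of all genes higher and 5440 lower, against 6113 and 4592 with TMM (trimmed mean of M values) scaling. In both sorts the OG and R26 libraries did not overlap for most genes that rose, 33 of 34 in the CD44- sort and 32 of 34 in the CD44+ sort. The share without overlap among all called genes was not counted, so these counts add no support beyond the calls. A rise of at least 1 on the log2 scale was found for 7 of the 43 genes in the CD44- sort (Atp6v0d2, Ctsd, Ctsz, Gla, Psap, Sqstm1 and Gabarapl1) and for 6 in the CD44+ sort (Atp6v0d2, Atp6v0e, Ctsd, Glb1, Psap and Sqstm1). Of all 15516 tested genes, 4094 changed by at least 1 in size, up or down, in the CD44- sort and 3944 in the CD44+ sort.

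**Figure D2:**
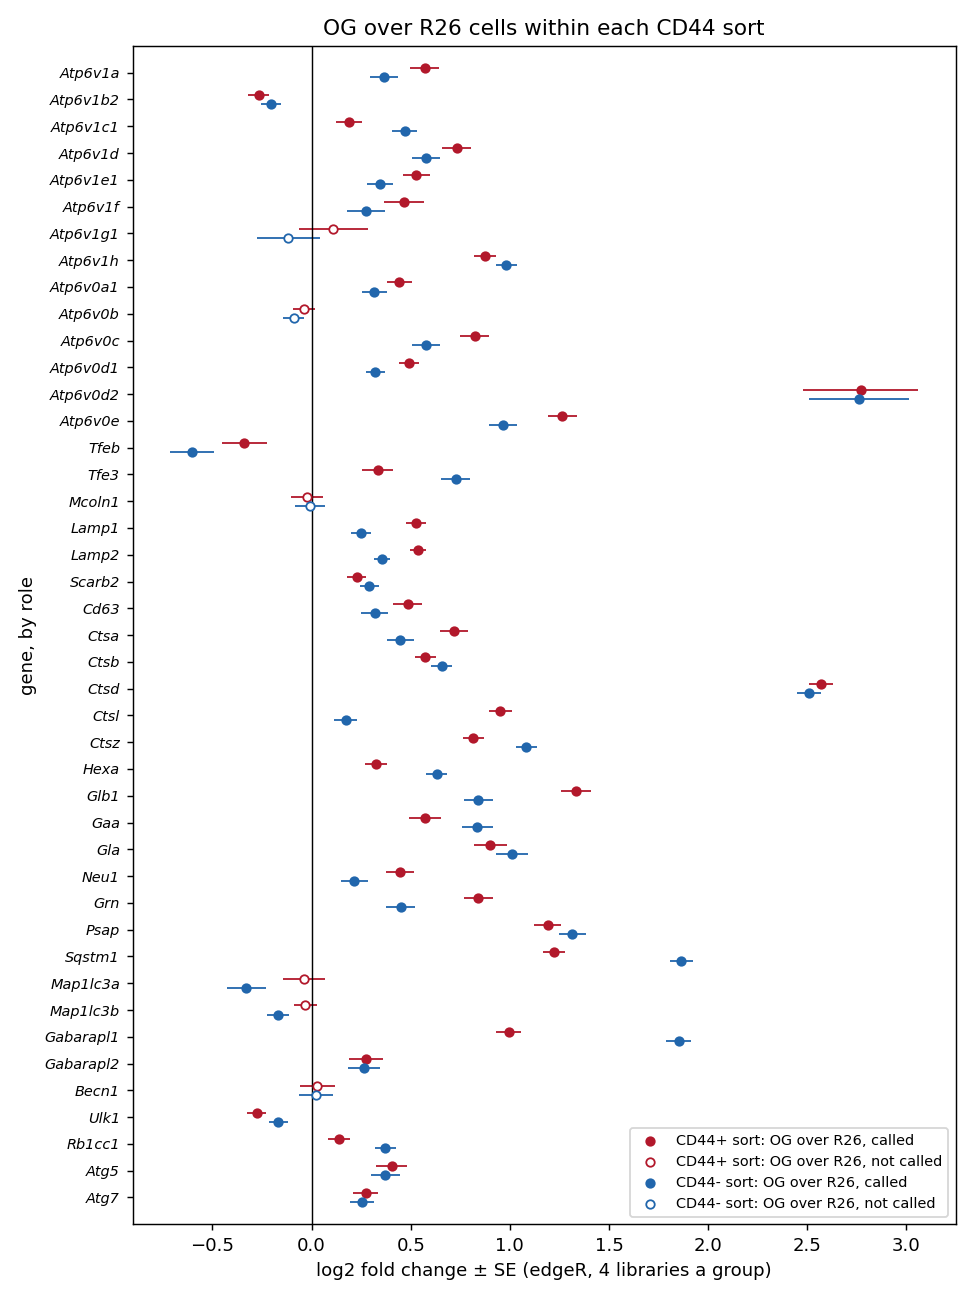
Log2 fold change with its SE for OG over R26 cells, in the CD44+ sort (red) and the CD44- sort (blue), with genes grouped by role; filled points passed adjusted p under 0.05 in edgeR. Most points lie right of 0 in both colours, and Tfeb, Atp6v1b2 and Ulk1 lie left of it in both.

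Most of the 14 listed subunits of the proton pump rose. In each sort 11 were higher and 1 lower in OG than in R26 cells, with a median log2 fold change of 0.51 in CD44+ and 0.36 in CD44- cells. Over all tested genes 34.5% rose in CD44+ and 39.4% in CD44- cells. Of 10 other V-ATPase genes tested from the longer list, 5 rose and 4 fell in CD44+ cells, and 6 rose and 3 fell in CD44- cells. In V1, Atp6v1h, the regulatory subunit H, showed the largest rise. Its libraries, listed here and below by animal number (OG animals 3, 5, 6 and 7, R26 animals 1, 2, 7 and 8), were at 93.6, 104, 97.3 and 101 CPM in OG CD44+ cells and 116, 115, 108 and 115 CPM in OG CD44- cells. R26 CD44+ cells had 51.1, 57.3, 50.6 and 57.0 CPM and R26 CD44- cells 58.7, 56.6, 55.6 and 58.6 CPM. Every OG library was above every R26 library, and the log2 fold change was 0.88 ± 0.05 in CD44+ cells (adjusted p = 5.25e-13 by edgeR) and 0.98 ± 0.05 in CD44- cells (adjusted p = 2.92e-14).

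Atp6v1a, the catalytic subunit A, was at 298, 338, 315 and 309 CPM in OG CD44+ cells, against 185, 253, 196 and 215 CPM in R26 CD44+ cells. In CD44- cells it was at 376, 367, 377 and 372 CPM in OG, against 288, 319, 269 and 282 CPM in R26. Within each sort the OG libraries lay above the R26 libraries, by 0.57 ± 0.07 and 0.37 ± 0.07 on the log2 scale, but OG CD44+ cells overlapped R26 CD44- cells. Atp6v1e1, a stalk subunit, stood at 99.4, 109, 113 and 105 CPM in OG CD44+ and 107, 116, 112 and 119.9 CPM in OG CD44- cells. It stood at 68.1, 86.4, 68.1 and 73.9 CPM in R26 CD44+ and 93.6, 94.9, 83.0 and 85.7 CPM in R26 CD44- cells. Here too the prefixes did not overlap within a sort, and the log2 fold changes were 0.53 ± 0.07 and 0.35 ± 0.07. Atp6v1d rose by 0.73 ± 0.07 and 0.58 ± 0.07, Atp6v1f by 0.47 ± 0.10 and 0.28 ± 0.10, and Atp6v1c1 by 0.19 ± 0.07 and 0.47 ± 0.06 in CD44+ and CD44- cells. Atp6v1b2, the partner of A in the catalytic ring, changed by -0.27 ± 0.05 and -0.20 ± 0.05, lower in OG cells of both sorts. Atp6v1g1 was not called in either and averaged only 4.83 ± 0.794 CPM in OG CD44+ and 6.13 ± 0.494 CPM in R26 CD44- cells (SD, n = 4 each).

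In V0, Atp6v0e, a small membrane subunit, rose to 71.4, 82.3, 82.9 and 84.7 CPM in OG CD44+ cells, against 33.3, 38.7, 31.6 and 30.6 CPM in R26 CD44+ cells. OG CD44- libraries had 69.8, 76.7, 73.8 and 77.3 CPM, against 41.1, 40.3, 35.0 and 36.1 CPM in R26 CD44- libraries. No OG library overlapped an R26 library, with log2 fold changes of 1.26 ± 0.07 in CD44+ and 0.97 ± 0.07 in CD44- cells. Atp6v0c, the proteolipid of the proton-carrying ring, was at 141, 152, 156 and 159 CPM in OG CD44+ cells and 147, 147, 151 and 148 CPM in OG CD44- cells. R26 CD44+ cells had 87.7, 101, 83.9 and 72.1 CPM and R26 CD44- cells 98.4, 109, 97.1 and 92.3 CPM. The prefixes were again apart, by 0.82 ± 0.07 and 0.58 ± 0.07 on the log2 scale. The annotation has 2 pseudogenes of Atp6v0c, and how reads shared with them were counted is not known. Atp6v0a1 rose by 0.44 ± 0.06 and 0.32 ± 0.06, Atp6v0d1 by 0.49 ± 0.05 and 0.32 ± 0.05, and Atp6v0b, a second ring proteolipid, was not called.

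Atp6v0d2, the alternative form of subunit d known from osteoclasts and macrophages, was rare in every group. OG CD44+ cells had 3.70, 3.42, 3.07 and 3.41 CPM and OG CD44- cells 3.86, 4.09, 4.88 and 4.49 CPM. R26 CD44+ cells had 0.655, 0.594, 0.179 and 0.565 CPM, which are 7, 5, 2 and 6 counts, and R26 CD44- cells had 0.563, 0.50, 0.855 and 0.581 CPM. The OG libraries lay above all R26 libraries, with log2 fold changes of 2.77 ± 0.29 and 2.76 ± 0.25, whose size rests on few R26 counts. Per kb of exon it stayed far under the usual form Atp6v0d1, at 1.25 against 85.6 CPM per kb in OG CD44+ cells. Of the 15 macrophage and monocyte markers that could be tested, 12 rose and 1 fell in OG CD44- against R26 CD44- cells. In OG CD44+ against R26 CD44+ cells 7 rose and 2 fell, and the sums of the markers overlapped. In R26 CD44+ against R26 CD44- cells 11 of 15 rose. Atp6v0d2 was not called there, on only 2 to 7 counts in each R26 CD44+ library. The part of these cell types was not tested.

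The longer list of 121 genes holds other forms of pump subunits. Of these, Atp6v1c2 and Atp6v0a4 had larger differences between prefixes than Atp6v1c1 and Atp6v0a1, the forms of the same subunits among the 43. Atp6v1c2, a form of subunit C known from lung and kidney, was at 17.9, 20.8, 19.1 and 23.3 CPM in OG CD44+ cells and 50.1, 56.8, 57.8 and 57.9 CPM in OG CD44- cells. Among R26 cells, CD44+ libraries had 181, 205, 207 and 219 CPM and R26 CD44- cells 253, 274, 266 and 292 CPM. It fell in OG cells by 3.32 and 2.29 on the log2 scale in the CD44+ and CD44- sort (SE 0.08 and 0.07), and the 4 groups did not overlap one another. Within a library, counts of Atp6v1c1 over those of Atp6v1c2, a ratio that no scaling between libraries can change, were 1.75 to 2.28 in OG CD44+ cells, 0.860 to 1.05 in OG CD44- cells, 0.175 to 0.192 in R26 CD44+ cells and 0.122 to 0.147 in R26 CD44- cells. Atp6v0a4, a form of subunit a known from acid-secreting kidney cells, averaged 63.4 ± 7.93 CPM in OG CD44+ and 47.5 ± 2.38 CPM in OG CD44- cells. It averaged 9.32 ± 2.44 CPM in R26 CD44+ and 9.31 ± 0.936 CPM in R26 CD44- cells (SD, n = 4 each). Its log2 fold changes were 2.77 ± 0.13 and 2.36 ± 0.12, while Tcirg1, the form of subunit a known from osteoclasts, changed by -0.52 ± 0.10 and -0.71 ± 0.10. Atp6v0a2, the form known from the Golgi, rose by 0.75 ± 0.05 and 0.65 ± 0.05.

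**Figure D3:**
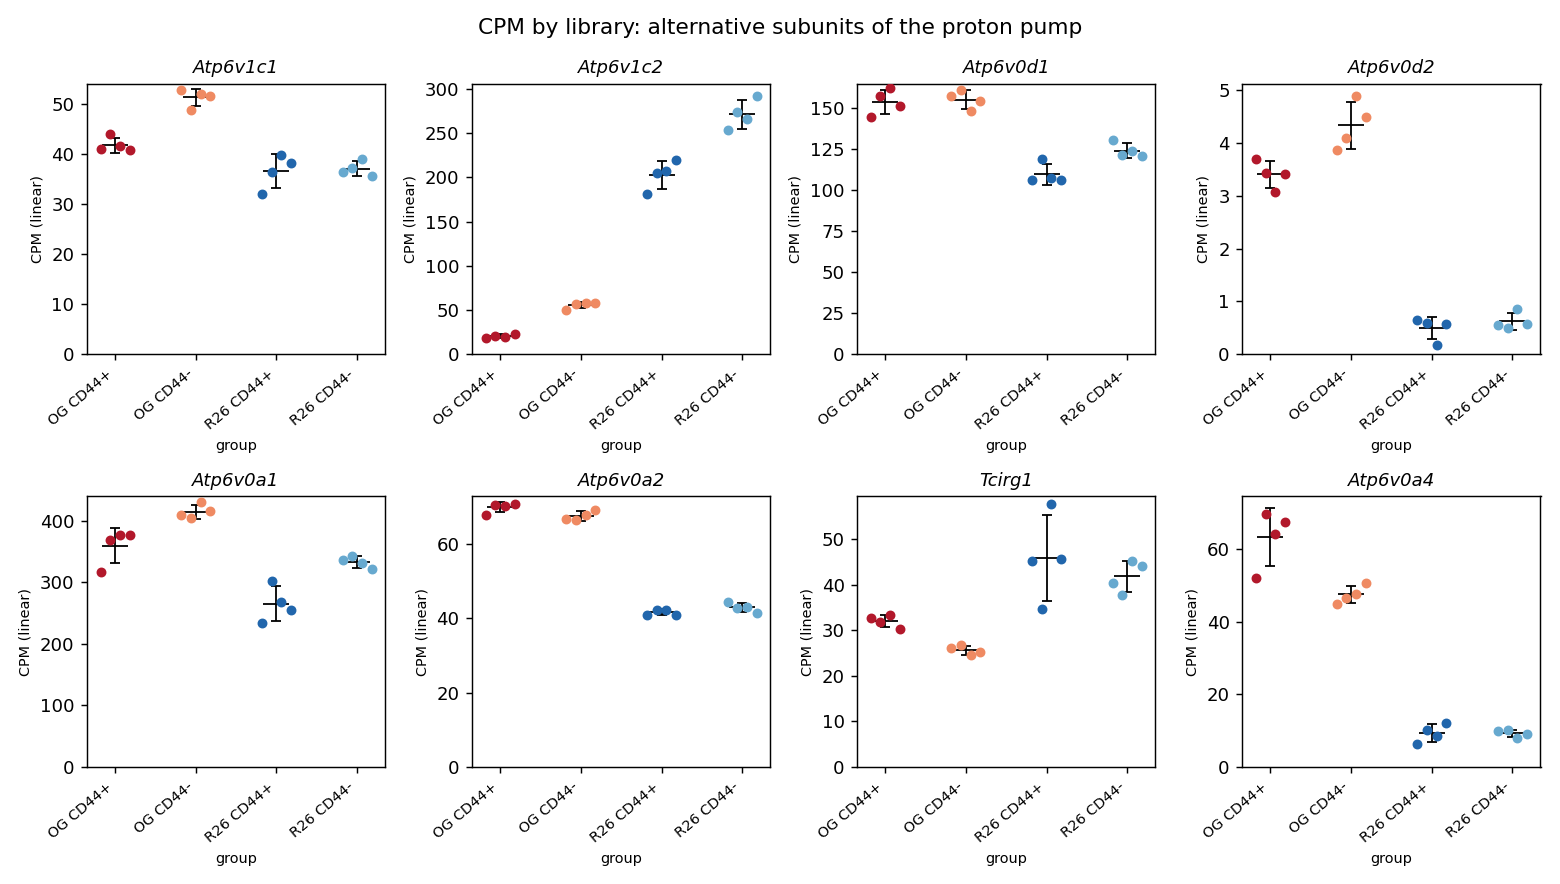
CPM of alternative forms of the pump's subunits C, d and a in each library (points), with the mean and SD of each group (bars), on linear axes that start at 0. Atp6v1c2 is lowest in OG CD44+ and highest in R26 CD44- cells, Atp6v0a4 is high in both OG groups, and Atp6v0d2 stays under 5 CPM throughout.

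The regulators did not move together. Tfeb was at 8.71, 9.02, 10.8 and 11.2 CPM in OG CD44+ cells, against 11.8, 13.8, 12.4 and 12.3 CPM in R26 CD44+ cells. OG CD44- libraries had 9.17, 8.77, 7.66 and 7.80 CPM, against 13.8, 13.2, 12.4 and 11.4 CPM in R26 CD44- cells. OG libraries lay below R26 libraries in both sorts, with log2 fold changes of -0.34 ± 0.11 (adjusted p = 0.0109 by edgeR) and -0.60 ± 0.11 (adjusted p = 3.92e-05). Tfe3 had 47.4, 57.5, 53.8 and 57.8 CPM in OG CD44+ cells and 76.5, 71.3, 78.1 and 79.2 CPM in OG CD44- cells. It had 48.5, 44.2, 40.7 and 38.7 CPM in R26 CD44+ cells and 51.9, 46.1, 44.7 and 42.2 CPM in R26 CD44- cells. OG CD44- libraries stood above all others, with a log2 fold change of 0.73 ± 0.07 over R26 CD44-, while OG CD44+ and R26 CD44+ libraries overlapped at 0.33 ± 0.08 (adjusted p = 5.37e-04). The count ratio of Tfe3 over Tfeb within a library was 4.98 to 6.38 in OG CD44+ cells, 8.12 to 10.2 in OG CD44- cells, 3.14 to 4.11 in R26 CD44+ cells and 3.48 to 3.77 in R26 CD44- cells. Mitf, the third of these factors and on the longer list, changed by -1.42 ± 0.08 and -1.02 ± 0.07.

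Mcoln1, the lysosomal calcium channel TRPML1, whose promoter is printed above, differed in no comparison. It had 25.0, 27.5, 28.9 and 27.9 CPM in OG CD44+ cells and 27.2, 26.7, 28.9 and 25.7 CPM in OG CD44- cells. In the R26 prefix, CD44+ libraries stood at 24.4, 31.0, 25.8 and 30.2 CPM and in R26 CD44- cells at 27.5, 28.1, 27.9 and 25.9 CPM. The 4 groups overlapped, and the log2 fold changes of -0.02 ± 0.08 and -0.01 ± 0.08 between prefixes were smaller than their SE. Of 14 genes with CACGTG in the window, 12 rose in OG cells in each sort, against 17 of 20 with a window and no CACGTG. Of the 14, 0 fell, and of the 20, 2 fell in the CD44+ and 3 in the CD44- sort. The median log2 fold changes of these 2 sets were 0.57 and 0.48 in the CD44+ sort and 0.37 and 0.35 in the CD44- sort. Of the 9 genes without a window 5 rose in each sort, with medians of 0.14 in CD44+ and 0.37 in CD44- cells. Over all tested genes 34.5% rose in the CD44+ and 39.4% in the CD44- sort.

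All 4 lysosomal membrane genes rose in OG cells in both sorts, at moderate size. Lamp1, which encodes an abundant glycoprotein of the lysosomal membrane, stood at 829, 909.6, 881 and 855 CPM in OG CD44+ cells, against 593, 651, 617 and 549 CPM in R26 CD44+ cells. OG CD44- cells had 814, 799, 791 and 776 CPM, against 681, 690.0, 669 and 632 CPM in R26 CD44- cells. The OG libraries were above all R26 libraries, by 0.53 ± 0.05 and 0.25 ± 0.05 on the log2 scale. Lamp2, which lines the same membrane and serves in chaperone-mediated autophagy, was at 496, 506, 506 and 484 CPM in OG CD44+ cells and 485, 478, 495 and 491 CPM in OG CD44- cells. Libraries of R26 CD44+ cells held 354, 349, 341 and 330.3 CPM and R26 CD44- cells 385, 381, 379 and 378 CPM. Its OG libraries too lay above all R26 libraries, with log2 fold changes of 0.54 ± 0.04 and 0.36 ± 0.04. Scarb2, the receptor that carries glucocerebrosidase to lysosomes, rose by 0.23 ± 0.05 and 0.29 ± 0.05, and the tetraspanin gene Cd63 by 0.48 ± 0.07 and 0.32 ± 0.07.

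All 5 proteases rose in OG cells in both sorts, Ctsd by far the most. Ctsd encodes cathepsin D, the main aspartic protease of lysosomes (gene 13033, chromosome 7, 142375911 to 142388038, minus strand, GRCm38), and falls outside the rule for genes given in every library, so it was chosen after its values were seen. It stood at 1223, 1312, 1334 and 1324 CPM in OG CD44+ cells, against 229.5, 237, 195 and 213 CPM in R26 CD44+ cells. OG CD44- libraries stood at 1229.9, 1227, 1217 and 1237 CPM, against 222, 235, 212 and 196 CPM in R26 CD44- cells. The lowest OG library was at 1217 CPM and the highest R26 library at 237 CPM, and neither prefix showed a called difference between sorts. The log2 fold changes were 2.57 ± 0.06 (adjusted p = 1.12e-20 by edgeR) and 2.51 ± 0.06 (adjusted p = 1.13e-20), about 5.94-fold and 5.69-fold. An annotated transcript of Gm49369 shares 808 exon bases with Ctsd on the same strand, and how reads there were divided is not known.

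Ctsz, the carboxypeptidase cathepsin Z, had 202, 224, 224 and 238 CPM in OG CD44+ cells and 271, 266, 278 and 268 CPM in OG CD44- cells. Levels in R26 CD44+ cells were 129, 139, 118 and 119 CPM, and those in R26 CD44- cells 125, 125, 133 and 129 CPM. OG libraries were above all R26 libraries, with log2 fold changes of 0.82 ± 0.05 and 1.08 ± 0.05. Ctsb, the cysteine protease cathepsin B, was at 622, 615, 648 and 617 CPM in OG CD44+ and 693, 673, 699 and 702 CPM in OG CD44- cells. It was at 446, 434, 414 and 387 CPM in R26 CD44+ and 464, 465, 428 and 399 CPM in R26 CD44- cells. The prefixes were apart by 0.57 ± 0.05 and 0.66 ± 0.05 on the log2 scale. Ctsl, which encodes the cysteine protease cathepsin L, was high in 1 group: 132, 130.5, 122 and 129 CPM in OG CD44+ cells. OG CD44- cells had 74.2, 68.7, 71.5 and 67 CPM, R26 CD44+ cells 66.8, 61.3, 61.3 and 75.5 CPM and R26 CD44- cells 64.4, 64.0, 60.8 and 60.9 CPM. Its log2 fold change between prefixes was 0.95 ± 0.06 in CD44+ cells and 0.17 ± 0.06 in CD44- cells. Ctsa, whose product also protects the glycosidases Glb1 and Neu1, rose by 0.72 ± 0.07 and 0.45 ± 0.07.

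The 5 glycosidases rose in both sorts as well. Glb1, the beta-galactosidase, had 42.6, 52.6, 48.9 and 51.0 CPM in OG CD44+ cells, against 19.8, 20.8, 18.1 and 18.9 CPM in R26 CD44+ cells. It had 39.2, 36.6, 34.2 and 34.4 CPM in OG CD44- cells, against 20.2, 20.7, 19.8 and 19.9 CPM in R26 CD44- cells. The lowest OG library was above the highest R26 library, with log2 fold changes of 1.33 ± 0.08 and 0.84 ± 0.07. Gaa, the acid alpha-glucosidase that degrades glycogen, was at 254, 262, 269.5 and 275 CPM in OG CD44+ and 387, 384, 387 and 386 CPM in OG CD44- cells. It was at 169.7, 222, 162 and 160.1 CPM in R26 CD44+ and 214, 243, 204 and 204 CPM in R26 CD44- cells. The prefixes were apart, by 0.57 ± 0.08 and 0.84 ± 0.08, and OG CD44- libraries were the highest. Hexa, the alpha subunit of beta-hexosaminidase, showed the same order with 74.0, 77.9, 74.8 and 73.1 CPM in OG CD44+ and 98.8, 96.9, 92.8 and 94.5 CPM in OG CD44- cells. Among R26 cells, CD44+ libraries had 53.5, 62.2, 61.9 and 61.8 CPM and R26 CD44- cells 63.6, 64.2, 61.9 and 57.5 CPM. Hexa was 0.32 ± 0.06 higher in OG CD44+ cells and 0.63 ± 0.05 higher in OG CD44- cells than in R26 cells of the same sort, on the log2 scale. Gla, the alpha-galactosidase A, rose by 0.90 ± 0.08 and 1.01 ± 0.08, and the sialidase gene Neu1 by 0.44 ± 0.07 and 0.22 ± 0.07.

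Psap, whose product is cut into saposins that help lipid hydrolases reach their substrates, differed by prefix and by sort. OG CD44+ cells had 398, 375, 401 and 404 CPM and OG CD44- cells 242, 237, 235 and 248 CPM. In the R26 prefix, CD44+ libraries stood at 191, 183, 147 and 171 CPM and in R26 CD44- cells at 101, 105, 95.5 and 85.4 CPM. The 4 groups did not overlap, and the OG over R26 log2 fold changes were 1.19 ± 0.07 in CD44+ and 1.32 ± 0.07 in CD44- cells. Grn, which encodes progranulin, a lysosomal and secreted glycoprotein, had 193, 194, 204 and 199 CPM in OG CD44+ cells and 163, 150.3, 157 and 158 CPM in OG CD44- cells. It had 116, 127, 96.7 and 102 CPM in R26 CD44+ cells and 116, 132, 108 and 104 CPM in R26 CD44- cells. OG libraries were above all R26 libraries, by 0.84 ± 0.07 and 0.45 ± 0.07, with OG CD44+ the highest group.

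Autophagy receptors and ATG8 proteins split into genes with large rises and genes without. Sqstm1 encodes p62, the receptor that binds ubiquitinated cargo (gene 18412, chromosome 11, 50199366 to 50210827, minus strand, GRCm38). Its level was 1397, 1405, 1496 and 1507 CPM in OG CD44+ cells and 1963, 2020.2, 2080.0 and 2167 CPM in OG CD44- cells. Libraries of R26 CD44+ cells held 667, 543, 650.1 and 624 CPM and R26 CD44- cells 565, 570.4, 566 and 556 CPM. OG CD44- libraries stood above OG CD44+ libraries and both stood above every R26 library, with log2 fold changes of 1.87 ± 0.06 in the CD44- sort (adjusted p = 7.66e-19 by edgeR) and 1.22 ± 0.06 in the CD44+ sort (adjusted p = 2.10e-15). Gabarapl1, an ATG8 protein of later autophagosome steps, had 109.9, 120.1, 115 and 119.9 CPM in OG CD44+ cells and 156, 163, 161 and 151 CPM in OG CD44- cells. It had 57.6, 55.7, 53.0 and 67.1 CPM in R26 CD44+ cells and 40.5, 48.1, 42.6 and 43.7 CPM in R26 CD44- cells. OG CD44- libraries were again the highest, no 2 groups overlapped, and R26 CD44+ stood above R26 CD44- cells, with log2 fold changes of 1.85 ± 0.06 in the CD44- and 0.99 ± 0.06 in the CD44+ sort. Both genes have exon bases that overlap a gene on the other strand (580 and 570), and the strand setting of the counting is not known. Such overlaps occur in 15 of the 43 genes, the largest in Becn1 (3104 bases) and Ctsl (1742 bases). Ctsl also shares 395 exon bases with a gene on its own strand, and Glb1 shares 165. Cd63 has an annotated pseudogene, and how reads shared with it were counted is not known.

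Map1lc3a and Map1lc3b, which encode the LC3 proteins used to follow autophagosomes, did not rise. Map1lc3a averaged 60.5 ± 5.83 CPM in OG CD44+ and 66.1 ± 3.03 CPM in OG CD44- cells, against 62.4 ± 12.2 CPM in R26 CD44+ and 82.9 ± 6.57 CPM in R26 CD44- cells (SD, n = 4 each). The log2 fold changes of OG over R26 were -0.04 ± 0.10, not called, in CD44+ cells and -0.33 ± 0.10 in CD44- cells. For Map1lc3b they were -0.03 ± 0.06, not called, and -0.17 ± 0.06. Gabarapl2 rose by 0.27 ± 0.09 and 0.26 ± 0.08. Among genes that start autophagy or attach ATG8 proteins, Ulk1, the initiating kinase, changed by -0.28 ± 0.05 and -0.17 ± 0.05, while its partner Rb1cc1 rose by 0.14 ± 0.05 and 0.37 ± 0.05. Atg5 rose by 0.40 ± 0.08 and 0.37 ± 0.07 and Atg7 by 0.27 ± 0.06 and 0.25 ± 0.06. Becn1, of the lipid kinase complex that marks forming autophagosomes, was not called, at 0.03 ± 0.09 and 0.02 ± 0.08. Of the differences between prefixes given above for the 43 genes, those of Atp6v1f, Ctsl, Neu1, Map1lc3b, Gabarapl2, Ulk1 and Atg7 in the CD44- sort, and those of Atp6v1c1 and Rb1cc1 in the CD44+ sort, lost the call under at least 1 alternative.

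**Figure D4:**
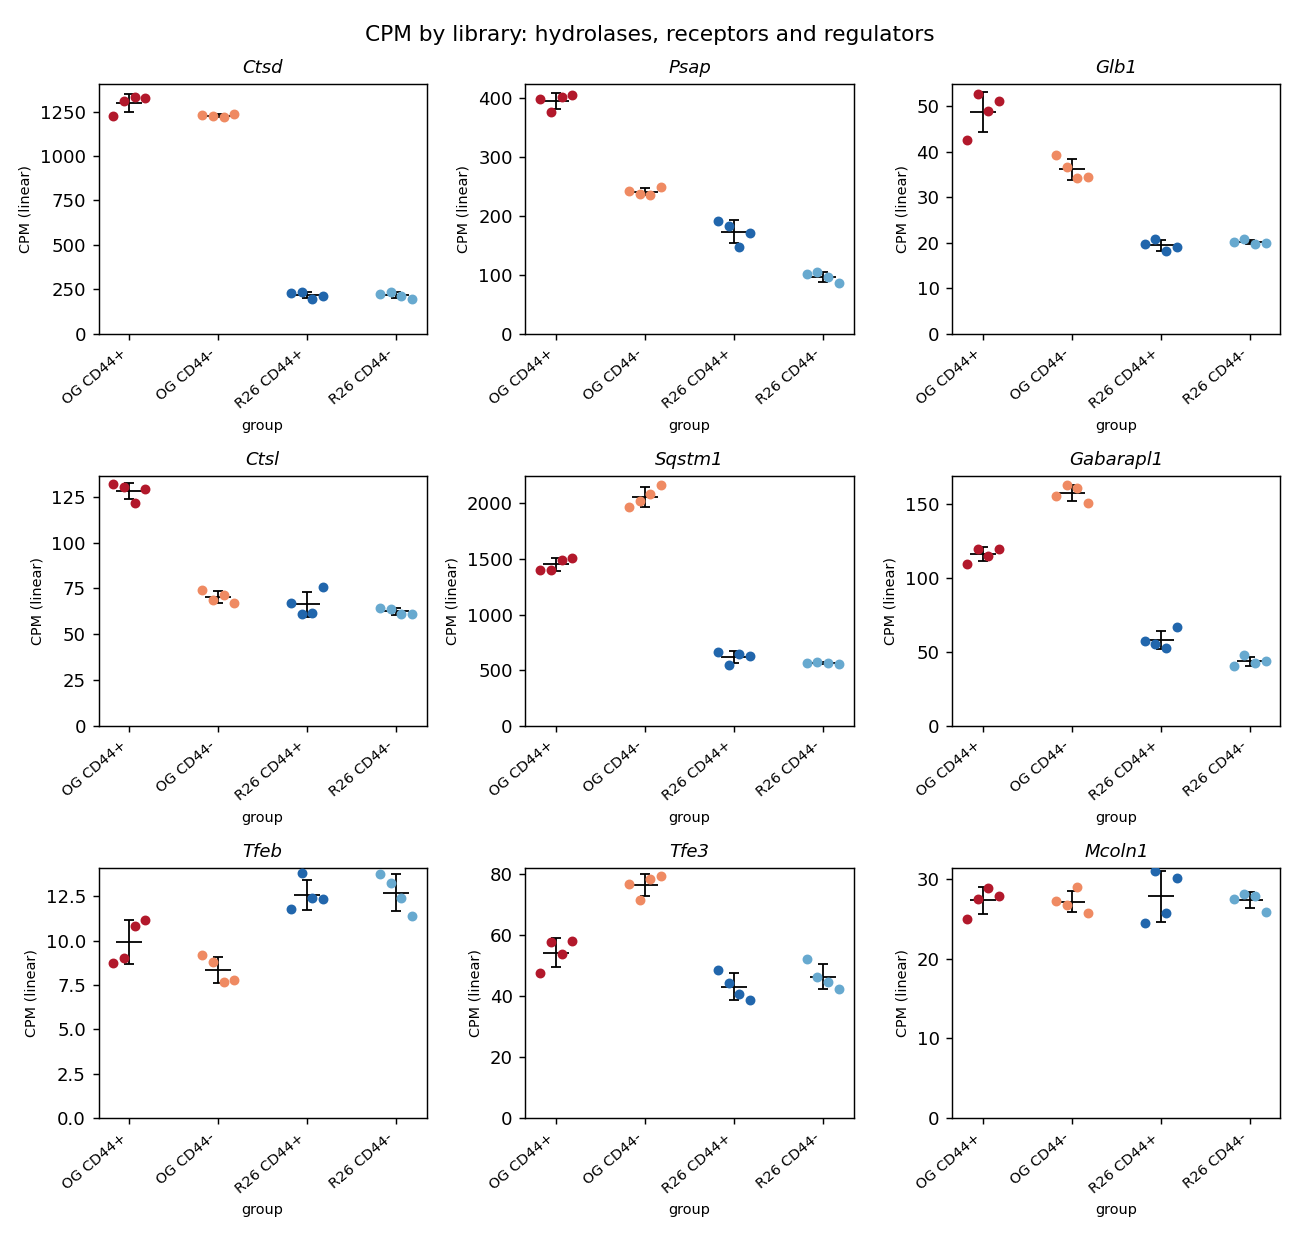
CPM of hydrolase, receptor and regulator genes in each library (points), with the mean and SD of each group (bars), on linear axes that start at 0. Ctsd splits by prefix alone, Psap by prefix and sort, and Ctsl is raised in OG CD44+ cells; Sqstm1, Gabarapl1 and Tfe3 are highest in OG CD44- cells and Mcoln1 is level.

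Per kb of merged exons, which allows levels of different genes to be set side by side, Ctsd was the highest of the 43 in OG CD44+ cells at 552 ± 21.7 CPM per kb, followed by Sqstm1 at 432 ± 17.3. In OG CD44- cells Sqstm1 was first at 613 ± 25.9 and Ctsd second at 522 ± 3.39. In R26 cells Lamp1 led, at 225 ± 16.1 CPM per kb in the CD44+ and 249.7 ± 9.57 in the CD44- sort, followed by Sqstm1 and Ctsd. Tfeb and Atp6v0d2 were the 2 lowest genes in every group. Exons of all annotated transcripts were merged, which lowers the value of genes with long unused exons.

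Within the OG prefix, CD44+ cells had lower levels of more of these genes than they had higher. In OG CD44+ against OG CD44- cells 6 rose and 17 fell, where 22.3% of all tested genes rose and 28.0% fell, with a median log2 fold change of -0.09 against -0.06 over all genes. Ctsl, Psap, Glb1, Grn, Ctsa and Lamp1 were the 6 that rose, by 0.87 ± 0.06, 0.71 ± 0.06, 0.44 ± 0.07, 0.33 ± 0.07, 0.20 ± 0.07 and 0.13 ± 0.05. The largest decreases were Gaa -0.54 ± 0.08, Sqstm1 -0.50 ± 0.06, Tfe3 -0.50 ± 0.07, Atp6v1b2 -0.46 ± 0.05 and Gabarapl1 -0.44 ± 0.06. The OG libraries of the 2 sorts did not overlap for any of these 5 genes, which were picked as the largest decreases. How often called genes in general lacked overlap was not counted, so this adds no support beyond the calls. Of the pump's 14 subunits 0 rose and 6 fell. The balance was sensitive to scaling: with upper quartile scaling 10 rose and 11 fell, and in a fit of only the 8 OG libraries 13 rose and 15 fell. All genes shifted too, from 3464 higher and 4351 lower in the fit above. They were 4140 and 3097 of 15516 with upper quartile scaling, and 4283 and 3918 of 14581 in the fit of 8 libraries. For 15 of the 23 called genes the call and direction held under every alternative, among them Ctsl, Psap, Glb1, Grn, Gaa, Sqstm1, Tfe3 and Gabarapl1. Markers of fibroblasts and mural cells summed to 1575 to 2807 CPM in OG CD44+ cells and 709 to 769 CPM in OG CD44- cells, all 7 of 7 rising. All 6 club and secretory cell markers rose too, with sums of 1839.9 to 2534 CPM in OG CD44+ and 635 to 756 CPM in OG CD44- cells, as did all 6 ciliated cell markers. The 3 of 6 lymphocyte and plasma cell markers that could be tested rose, with sums over the 6 of 156 to 427 CPM in OG CD44+ and 9.61 to 16.7 CPM in OG CD44- cells. Of 7 transitional alveolar markers 4 rose, and 4 of 6 endothelial markers fell. The part of these markers was not tested.

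Within the R26 prefix the same comparison gave 2 genes higher and 15 lower, where 21.6% of all tested genes rose and 15.4% fell. The medians were -0.10 over the 43 genes and -0.02 over all genes. Psap, at 0.84 ± 0.07, and Gabarapl1, at 0.42 ± 0.07, were the 2 that rose. The largest decreases were Atp6v1a -0.45 ± 0.07, Atp6v1g1 -0.45 ± 0.17, Map1lc3a -0.42 ± 0.10, Atp6v0b -0.41 ± 0.05 and Atp6v1b2 -0.40 ± 0.05, and of the pump's subunits 0 rose and 8 fell. Atp6v1a, Atp6v1b2, Atp6v0a1, Atp6v0b, Gaa and Ulk1 were lower in CD44+ cells of both prefixes, and Psap was higher in both. The count of lower genes depended on scaling and on single libraries. It was 13, beside 4 higher, with upper quartile scaling, 23 and 28 with an OG CD44+ and an OG CD44- library as the TMM reference, and 29 without R26 CD44+ animal 2, 25 without R26 CD44- animal 8, and 23 without R26 CD44- animal 7, R26 CD44- animal 2 or R26 CD44+ animal 8. In a fit of only the 8 R26 libraries it was 7. Lower calls over all genes moved as well, from 2393 of 15516 in the fit above. They numbered 1943 with upper quartile scaling, and 3869 and 4791 with the OG CD44+ and OG CD44- references. Without R26 CD44+ animal 2 they numbered 4429 of 15716. They were 3696 of 15695 without R26 CD44- animal 8, and 1353 of 14555 in the fit of 8 libraries. Macrophage and monocyte markers rose in this comparison (11 of 15 tested, 0 lower), as did the 7 of 7 fibroblast and mural markers, whose sums were 684 to 1465 CPM in CD44+ and 96.9 to 127 CPM in CD44- cells. All 6 club and secretory, all 6 endothelial and the 3 testable lymphocyte and plasma cell markers rose as well, with 6 of 8 alveolar type 1, 6 of 7 transitional alveolar and 4 of 6 ciliated cell markers. The sums of lymphocyte and plasma cell markers were 153 to 305 CPM in CD44+ and 2.39 to 4.02 CPM in CD44- cells, and the part of all these markers was not tested.

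The difference between prefixes in the CD44+ over CD44- change was tested as an interaction. It was positive for 7 genes and negative for 7, where 6.57% of all tested genes were called positive and 18.1% negative, and the medians were 0.05 and -0.10. Ctsl had the largest positive interaction, 0.78 ± 0.08: CD44+ exceeded CD44- cells by 0.87 ± 0.06 in OG and by 0.08 ± 0.06, not called, in R26. Glb1 followed with 0.49 ± 0.11, Grn with 0.39 ± 0.10, Atp6v0e with 0.30 ± 0.10, Lamp1 with 0.28 ± 0.07, Ctsa with 0.27 ± 0.10 and Lamp2 with 0.18 ± 0.06. Gabarapl1 had the largest negative one, -0.86 ± 0.09 (adjusted p = 2.06e-07 by edgeR), since it was lower in CD44+ cells of OG and higher in CD44+ cells of R26 animals. For Sqstm1 it was -0.64 ± 0.08 (adjusted p = 1.81e-06), with a change of -0.50 ± 0.06 in OG and 0.14 ± 0.06, not called, in R26. The others were Tfe3 -0.39 ± 0.11, Hexa -0.31 ± 0.08, Atp6v1c1 -0.28 ± 0.09, Ctsz -0.27 ± 0.08 and Rb1cc1 -0.23 ± 0.08. Scaling moved this split: 10 were positive and 5 negative with upper quartile scaling, and 17 and 2 or 19 and 2 with TMM referred to an OG CD44+ or OG CD44- library, where the median of all genes was 0.03 or 0.05. Calls over all 15516 genes moved as well, from 1019 positive and 2806 negative in the fit above. They were 1412 and 2329 with upper quartile scaling, and 1984 and 1870 or 2314 and 1713 with those references. With the animal as a block, 13 genes were positive and 8 negative, where 1449 of all genes were positive and 3525 negative. Leaving out 1 R26 library at a time, 13 to 21 were positive and 2 or 3 negative, while the median of all genes moved to between 0.02 and 0.03. In those fits 1720 to 2419 of all genes were positive and 1651 to 2104 negative. Lamp1, Ctsl, Glb1, Grn, Sqstm1 and Gabarapl1 kept the call and direction under every alternative.

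**Figure D5:**
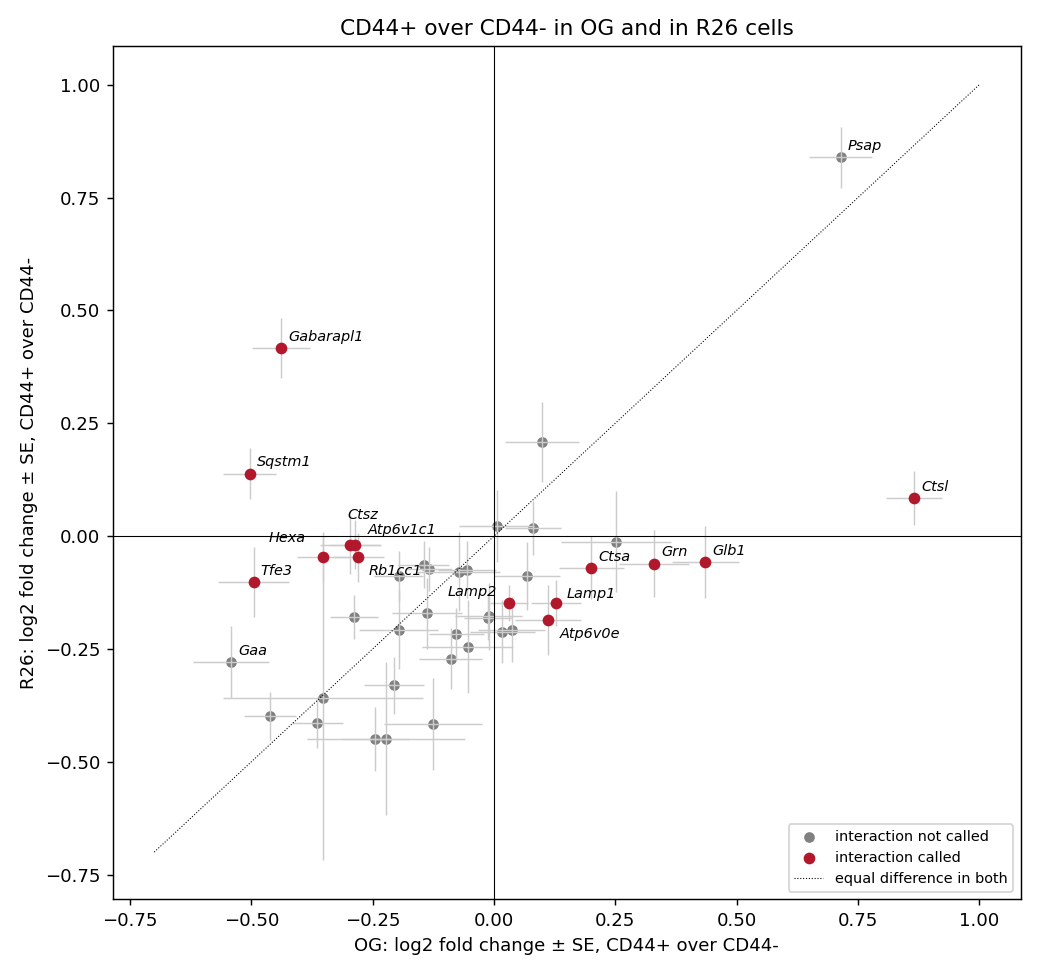
Log2 fold change of CD44+ over CD44- cells with its SE in OG (x axis) against R26 animals (y axis) for the 43 genes; red points had a called interaction and the dotted line marks an equal change. Psap lies near the line at upper right, Ctsl far to the right of it, and Gabarapl1 and Sqstm1 to its upper left.

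The longer list of 121 genes of the pathways held 119 that could be tested. In OG CD44- against R26 CD44- cells 59 rose and 35 fell, with a median log2 fold change of 0.18 (49.6% and 29.4% of the 119, against 39.4% and 29.6% of all tested genes). In OG CD44+ against R26 CD44+ cells 53 rose and 34 fell, with a median of 0.15 (44.5% and 28.6%, against 34.5% and 34.6% of all genes). In OG CD44+ against OG CD44- cells 30 rose and 50 fell (25.2% and 42.0%, against 22.3% and 28.0%), and in R26 CD44+ against R26 CD44- cells 9 rose and 34 fell (7.56% and 28.6%, against 21.6% and 15.4%). Among 49 other lysosomal enzymes and transporters, 28 rose and 12 fell in the CD44+ sort and 26 rose and 13 fell in the CD44- sort, which is 57.1% and 24.5%, and 53.1% and 26.5%. Ctsh, a cathepsin that matures surfactant proteins, rose by 2.00 ± 0.06 and 1.19 ± 0.06, and Igf2r, which sorts hydrolases by mannose 6-phosphate, by 1.11 ± 0.06 and 0.89 ± 0.06. Ctns, the lysosomal cystine exporter, changed by -0.98 ± 0.09 and -1.15 ± 0.08, and the sorting receptor Sort1 by -0.70 ± 0.06 and -0.85 ± 0.06. The largest rises of the 49 were Ctsk at 2.44 in the CD44+ sort and Ctss at 5.17 in the CD44- sort. In R26 CD44+ against R26 CD44- cells 5 of the 49 rose and 15 fell. There Ctss rose by 4.25 ± 0.49, Lipa by 2.21 ± 0.20 and Ctsk by 1.44 ± 0.21. The part of other cell types in these changes was not tested.

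Of 19 other regulators on that list, 6 rose and 9 fell in the CD44+ sort and 9 rose and 7 fell in the CD44- sort. These are 31.6% and 47.4%, and 47.4% and 36.8%, so the shares of genes that rose were near those over all genes given above. The shares that fell were above those over all genes, 34.6% in the CD44+ and 29.6% in the CD44- sort. Flcn, which with FNIP proteins acts on the Rag GTPases that hold TFEB-family factors in the cytosol, averaged 24.5 ± 2.75 CPM in OG CD44+ and 32.0 ± 1.41 CPM in OG CD44- cells, against 87.3 ± 5.94 CPM in R26 CD44+ and 104 ± 9.16 CPM in R26 CD44- cells (SD, n = 4 each). OG and R26 libraries were far apart, with log2 fold changes of -1.83 ± 0.08 and -1.70 ± 0.07. Its partner Fnip2 changed by -1.71 ± 0.06 and -1.39 ± 0.06. Rptor, the subunit of mTORC1 that binds its substrates, rose by 0.63 ± 0.05 and 1.18 ± 0.05, and Rheb, which activates that kinase, by 0.74 ± 0.07 and 0.81 ± 0.07. Among 41 other autophagy factors, 14 rose and 9 fell in the CD44+ sort and 18 rose and 12 fell in the CD44- sort (34.1% and 22%, and 43.9% and 29.3%). Those that rose were again near the shares over all genes. The share that fell in the CD44+ sort was below the 34.6% of all genes. Wipi2 was at 0.53 ± 0.05 and 0.70 ± 0.05 and the receptor gene Optn at -0.91 ± 0.08 and -0.21 ± 0.08. The Optn call in the CD44- sort was lost under 3 alternatives.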

How the data were processed

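The authors deposited raw counts per gene for 16 libraries, prepared with a stranded total RNA kit after removal of ribosomal RNA, per the labels' protocols. Bowtie2 and the build mm10 stand in the submitters' processing notes. The counting program and its strand setting are not given in the sources used here. Columns were put into groups by prefix and sort; no column of values was left unused (0).

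Genes were filtered with filterByExpr and scaled by TMM, and 1 mean per group over all 16 libraries was fitted with edgeR 4.0.16 (R 4.3.3; robust quasi-likelihood F test). P-values were adjusted over 15516 genes by Benjamini-Hochberg at 0.05. Each SE was taken as the absolute log2 fold change over the square root of F. CPM uses TMM-scaled totals. Exon lengths come from GENCODE for GRCm38 and promoters from RefSeq GRCm38.p6. The fit was tested on simulated data with 200 changed genes. Other scalings, filters, DESeq2 1.42.0, an animal block in edgeR and left-out libraries were tried as alternatives.

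Both sorts of an animal carry its number in the table's column names, which pairs them; deviations of the paired libraries from their group means correlated at 0.02 to 0.24. Values in every library are given for genes called in at least 3 of 5 comparisons with a log2 change of 0.5 or more in at least 1, up to 3 per role by smallest adjusted p, and for Tfeb, Tfe3, Mcoln1, Sqstm1 and Atp6v0d2; from the longer list, up to 3 called genes per direction were eligible to be named. Members and lists were chosen with earlier results of these data known.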

Additional observations from a re-analysis of the deposited data

Results flagged for a closer look

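Within groups, 8 of 172 sets of 4 libraries (43 genes in 4 groups) had 1 library far from the other 3 by Dixon's criterion, and chance gives about 1 in 20. In OG CD44+ cells, animal 3 was apart for Atg5 (31.2 CPM, the others 26.4 to 27.1) and Atp6v0a1 (317 CPM, the others 368 to 378), animal 6 for Scarb2 (310.5 CPM, the others 325 to 326) and animal 7 for Gabarapl2 (21.7 CPM, the others 22.6 to 22.8). In OG CD44- cells, animal 5 was apart for Rb1cc1 (119 CPM, the others 112 to 113). In R26 CD44+ cells, animal 2 was apart for Atp6v0d1 (119 CPM, the others 106 to 107) and Gaa (222 CPM, the others 160.1 to 169.7), and animal 1 for Hexa (53.5 CPM, the others 61.8 to 62.2).

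The CD44+ over CD44- change differed between OG and R26 animals, by the interaction test, for 14 genes, 7 positive and 7 negative, where 6.57% of all tested genes were positive and 18.1% negative. The calls of Lamp1, Ctsl, Glb1, Grn, Sqstm1 and Gabarapl1 held under every alternative, and the other 8 were lost under at least 1. The difference of the log2 fold changes was 0.78 for Ctsl, 0.49 for Glb1, 0.39 for Grn, 0.30 for Atp6v0e, 0.28 for Lamp1, 0.27 for Ctsa and 0.18 for Lamp2. It was -0.86 for Gabarapl1, -0.64 for Sqstm1, -0.39 for Tfe3, -0.31 for Hexa, -0.28 for Atp6v1c1, -0.27 for Ctsz and -0.23 for Rb1cc1.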

How the results depend on the processing

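Of 130 calls among the 43 genes, 97 held under every alternative and none changed direction. They held for 15 of 23 in OG CD44+ against OG CD44-, 9 of 17 in R26 CD44+ against R26 CD44-, 32 of 39 in OG CD44- against R26 CD44-, 35 of 37 in OG CD44+ against R26 CD44+ and 6 of 14 interactions. In OG CD44+ against OG CD44- cells the genes higher numbered 10 with upper quartile scaling and 13 with only the 8 libraries compared. Those lower numbered 11 and 15 in the same 2 settings. In R26 CD44+ against R26 CD44- cells the genes higher numbered 4 with upper quartile scaling and 4 with a minimum of 50 counts in 4 libraries. Those lower numbered 23 and 28 with TMM referred to an OG CD44+ and an OG CD44- library, 7 with only the 8 libraries compared, and 15 to 29 without 1 library. In OG CD44- against R26 CD44- cells 3 were lower without a filter. Positive interactions numbered 17 and 19, and negative ones 2 and 2, with TMM referred to an OG CD44+ and an OG CD44- library. With the animal as a replicate block 13 were positive, and without 1 library 5 to 21 were positive and 2 to 7 negative. Counts over all tested genes moved too. Across settings 2851 to 4283 were higher and 3097 to 4785 lower in OG CD44+ against OG CD44- cells. In R26 CD44+ against R26 CD44- cells 2425 to 3801 were higher and 1353 to 4791 lower. Interactions over all genes ranged over 817 to 2419 positive and 1651 to 3525 negative. Over the longer list the genes higher and lower ranged over 21 to 36 and 33 to 51 in OG CD44+ against OG CD44-, 6 to 9 and 22 to 60 in R26 CD44+ against R26 CD44-, 39 to 66 and 28 to 43 in OG CD44- against R26 CD44-, and 50 to 61 and 30 to 38 in OG CD44+ against R26 CD44+. With only the 250 bases before the start, CACGTG stood in 12 of the 34 genes with a window (35.3%, against 6.86% of all genes) and TCACGTGA in 5 (14.7%, against 0.907%). On the longer list these shares were 18.8% and 5.94%. The cause of these shifts was not tested. The block moved no other count by over 1.5 times and lost no call. No block could be fitted between prefixes, which share no animal. Atp6v0d2 had 2 to 13 counts in R26 libraries, so the size of its change is loosely set.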
